A study of Mus musculus with 192 samples.

Results

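Chemokines are small secreted proteins that direct the migration of leukocytes, and they act through receptors of the G protein-coupled family on the cells that respond. They are grouped by the spacing of their first cysteines into CC, CXC and CX3C ligands, with receptors named after the ligand class they bind, and many of the mouse genes lie in tandem clusters. Some chemokines, such as Cxcl1, are produced by epithelial and tumor cells upon inflammatory stimulation, whereas others, such as Cxcl13, mark the stroma of lymphoid organs. The mouse genes of this system were the protein-coding genes whose symbols start with Ccl, Cxcl, Cx3c, Ccr or Cxcr followed by a digit or letter code. They comprised 55 of the 22208 protein-coding genes on the chromosomes with windows, 36 ligands and 19 receptors.

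The windows came from Pi-ATAC, protein-indexed single-cell ATAC-seq. In it a transposase tags open DNA in fixed cells, and the stained proteins of each cell are recorded as it is sorted. The pool combined 4T1, an established mammary carcinoma line of the mouse, with splenocytes of 1 MMTV-PyMT animal that bore no tumor when its spleen was taken. In such mice the MMTV promoter drives polyoma middle T antigen in the mammary epithelium. There were 96 cells titled 4T1 and stained for EpCAM, an epithelial surface protein, and 96 titled splenocytes and stained for CD45, the leukocyte surface protein. By source name the numbers were 95 and 97, because 1 cell titled 4T1 had the source name of the splenocytes. The only measurement analyzed here was 1 list of 50000 windows of 500 bp on mm9, read as both cell types pooled from the names of its peaks. The methods describe peak finding within 1 condition at a time, which leaves this reading unsettled. A window in the list marks accessible DNA, and it does not tell which cell type, or how many cells, it came from. With a single list and without scores or replicates, no comparison below was tested, the read depth behind the list is unknown, and all shares describe this list.

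Windows were listed at markers of both cell types. All 5 epithelial genes examined (Epcam, Krt8, Krt18, Cdh1 and Cldn4) had a window within 1 kb of a transcript start, as did 4 of 12 leukocyte genes (Coro1a, Laptm5, Cd79a and Cd3e; 33.3%, against 48.3% of all protein-coding genes). A window in the gene or its 10 kb flanks was listed for 10 of the 12 leukocyte genes (83.3%, against 68.2% of all genes), Cd3d and Lyz2 being without. Ptprc, which encodes CD45, had 3 such windows and none at a start. Peak calls carry running numbers to 118153 in the order of position, so calls that did not enter the list could be counted from the gaps. The listed share of numbered calls was 27.2–31.3% on chromosomes 1 and 10–13, 38.2% on chromosome 14 and 39.7–44.4% elsewhere, so chromosomes 1 and 10–13 kept fewer of their calls.

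In the gene and its 10 kb flanks, chemokine genes as a whole had fewer windows than the average gene, and ligands fewer than receptors. A promoter window, defined as one that overlapped the 1 kb on either side of any transcript start, was found at 6 of 36 ligand genes (16.7%) and 6 of 19 receptor genes (31.6%), compared with 48.3% of all protein-coding genes. A locus window, lying in the gene or within 10 kb of it, was found at 15 ligand genes (41.7%) and 11 receptor genes (57.9%), compared with 68.2% of all genes. Ligand loci held 39 distinct windows and receptor loci 28, which is a mean of 1.11 and 1.47 windows per gene against 2.43 over all genes. The median was 0 for ligands, 1 for receptors and 2 for all genes. Chemokine genes are short, and the searched locus with both flanks had a median length of 23.1 kb in ligands, 27.3 kb in receptors and 35.5 kb in all genes, the part of which in the locus counts was not tested. Receptors were thus placed between ligands and the average gene on each of these measures. When only locus windows nearest to the gene's own start were counted, 30.6% of ligands and 57.9% of receptors had one. The share of all genes was then 58.9%, close to that of receptors. The difference in promoter share, ligands minus receptors, of -14.9 percentage points rested on few genes. It turned to 5.56 points when only windows from calls with several summits were counted. That count had 2 ligands (5.56%) and 0 receptors, against 13.1% of all genes.

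**Figure D1:**
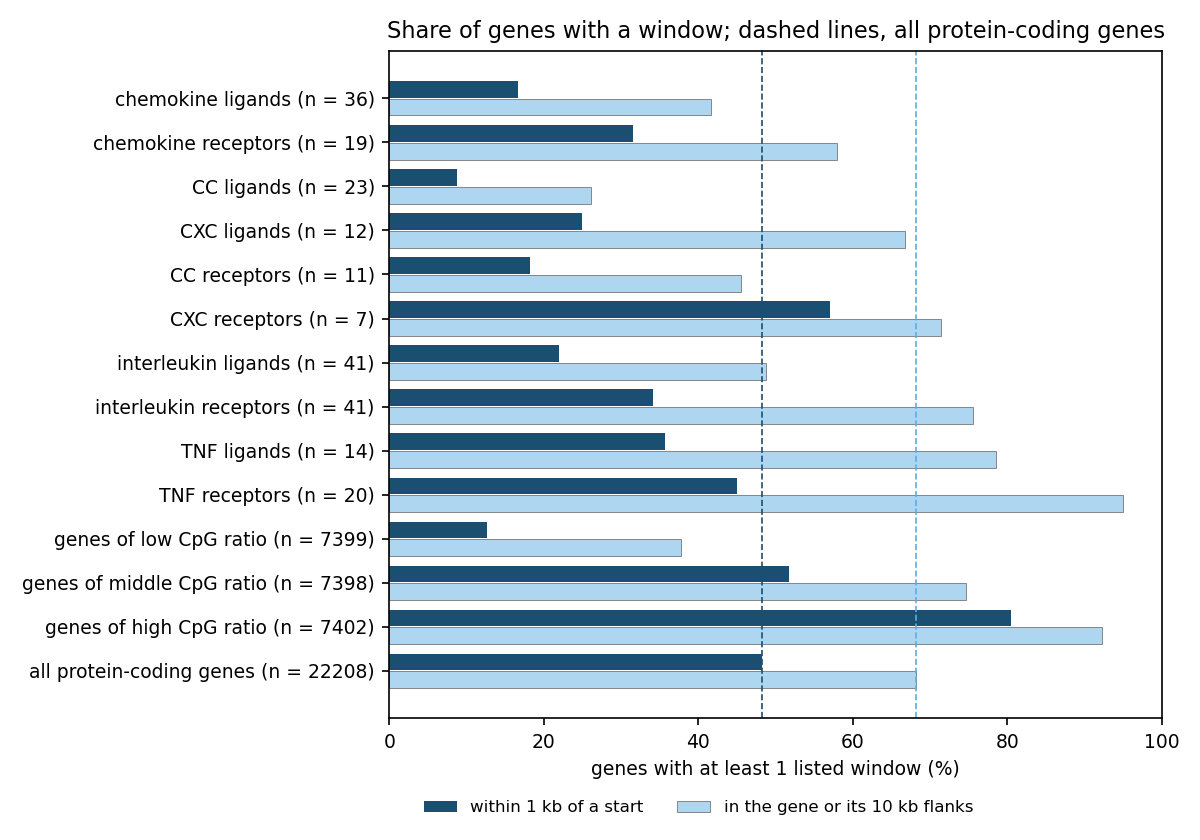
Percentage of genes with at least 1 listed window, within 1 kb of a transcript start (dark bars) or in the gene and its 10 kb flanks (light bars), for chemokine genes, like gene families, genes split by promoter CpG ratio and all genes (dashed lines). Chemokine ligands (16.7% and 41.7%) and receptors (31.6% and 57.9%) lie below all genes (48.3% and 68.2%) on both measures, while genes of low CpG ratio have 12.6% and 37.7%.

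The CC and CXC branches differed in the same way on both sides of the system. Among CC ligands 2 of 23 (8.7%) had a promoter window and 6 (26.1%) a locus window, while 3 of 12 CXC ligands (25%) and 8 of the 12 (66.7%) did. Among CC receptors 2 of 11 (18.2%) had a promoter window and 5 (45.5%) a locus window, and for CXC receptors it was 4 of 7 (57.1%) and 5 of 7 (71.4%). CXC receptors thus lay above the shares of all genes (48.3% and 68.2%), the other 3 branches below both. The CXC locus shares (66.7% of ligands and 71.4% of receptors) were close to that of all genes. The promoter share of CXC receptors rests on 4 of 7 genes, and no difference between branches was tested. The sole CX3C ligand, Cx3cl1, had promoter windows, and its receptor Cx3cr1 had locus windows but none at the start.

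Promoters of chemokine genes were poor in CpG, a property that goes with few windows over all genes, and the median ratio was lower in receptors than in ligands. The CpG ratio, observed over expected CpG in the 1 kb around the 5' end, had a median of 0.217 in ligands and 0.176 in receptors, against 0.551 in all genes. By branch the median was 0.180 in CC and 0.387 in CXC ligands, and 0.172 in CC and 0.215 in CXC receptors. Of the 36 ligands 24 fell into the lowest tercile of all genes, and of the 19 receptors 16 did. In that tercile 12.6% of all genes had a promoter window and 37.7% a locus window. Ligands of low CpG ratio had a promoter window in 1 of 24 genes (4.17%, Ccl20) and a locus window in 6 (25%), both below that level. Receptors of low CpG ratio had them in 3 of 16 (18.8%; Ccr6, Cxcr5 and Cxcr6) and 8 of 16 (50%), both above it but on few genes. In the middle tercile, 4 of 9 ligands (44.4%) and both receptors, Cxcr4 and Cxcr7, had a promoter window, compared with 51.8% of all genes there. Ccl25, Cxcl12 and Cxcl14 were the 3 ligands of high CpG ratio and Ccr9 the only such receptor, and for Ccr9 the 5' end used for this ratio was the outer start of a long gene model, which had no window. What part CpG content has in the shares was not tested.

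Ligands also lay below receptors in the interleukin and TNF families. Interleukin genes had a promoter window in 9 of 41 ligands (22%) and 14 of 41 receptors (34.1%). In the TNF superfamily it was 5 of 14 ligands (35.7%) and 9 of 20 receptors (45%). Locus windows were found at 48.8% of interleukin ligands and 75.6% of interleukin receptors, and at 78.6% and 95% of TNF ligands and receptors, so chemokine genes had the lowest share on each side of the 3 families. Chemokine and interleukin receptors were close in promoter share (31.6% and 34.1%). The searched loci had medians of 26.6 and 51.9 kb in interleukin ligands and receptors and 30.1 and 38.5 kb in TNF ligands and receptors. Both these lengths and the median CpG ratios were above those of chemokine genes on each side, the part of which was not tested.

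Matches to NF-kB, the inflammatory transcription factor, were found in 33.3% of the windows at ligand genes and in 8.06% of all windows, and the sequences of examples follow. They are mm9 sequence without UTR bases, written 5' to 3' on the strand of the gene, with capitals marking matches to NF-kB (a 10-letter consensus), the interferon response word GAAANNGAA, AP-1 (TGANTCA), RUNX (TGTGGT), TEAD (GGAATG) or ETS/PU.1 (GAGGAAGT) on either strand. The stretches were chosen after their matches were seen. The Cxcl1 stretch is chr5:91320117-91320266 and ends directly at the transcript start, and its capitals are 2 overlapping NF-kB matches, 1 on each strand. The Cxcl10 stretch, chr5:92777929-92778128, lies just upstream of that gene and holds an interferon response match, 2 NF-kB matches and an AP-1 match in this order. The Ccl20 stretch is chr1:83113191-83113340 and holds RUNX, NF-kB and TEAD matches up to the start. The Ccl5 stretch, chr11:83348193-83348392, comes from a distal window 4272 bp upstream and holds an NF-kB and an interferon response match.
Cxcl1: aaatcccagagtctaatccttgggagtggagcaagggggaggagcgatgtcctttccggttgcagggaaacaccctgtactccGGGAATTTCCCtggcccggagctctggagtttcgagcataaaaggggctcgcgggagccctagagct
Cxcl10: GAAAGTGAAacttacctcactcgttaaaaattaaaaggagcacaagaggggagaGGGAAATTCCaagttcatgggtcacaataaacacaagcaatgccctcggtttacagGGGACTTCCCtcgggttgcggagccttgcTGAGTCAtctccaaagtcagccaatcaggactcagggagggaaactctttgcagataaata
Ccl20: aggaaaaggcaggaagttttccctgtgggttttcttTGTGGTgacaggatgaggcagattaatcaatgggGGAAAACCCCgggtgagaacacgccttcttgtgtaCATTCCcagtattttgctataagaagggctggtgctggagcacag
Ccl5: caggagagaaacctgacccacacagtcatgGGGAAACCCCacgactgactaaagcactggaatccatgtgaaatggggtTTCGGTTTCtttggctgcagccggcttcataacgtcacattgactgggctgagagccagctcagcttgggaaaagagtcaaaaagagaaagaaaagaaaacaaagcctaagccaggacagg

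For the receptors, the NF-kB matches lay in introns near a start or further into the gene. The Ccr6 stretch is chr17:8436013-8436212, the Ccr9 stretch chr9:123676508-123676707, the Cxcr7 stretch chr1:92100983-92101182 and the Cx3cr1 stretch chr9:119973529-119973728. Capitals mark 1 NF-kB match in each, with a RUNX match in Cxcr7 and an AP-1 and a RUNX match in Cx3cr1.
Ccr6: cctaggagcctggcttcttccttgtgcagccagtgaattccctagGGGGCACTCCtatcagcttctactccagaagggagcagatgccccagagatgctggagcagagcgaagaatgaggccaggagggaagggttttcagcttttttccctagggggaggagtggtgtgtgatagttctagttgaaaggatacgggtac
Ccr9: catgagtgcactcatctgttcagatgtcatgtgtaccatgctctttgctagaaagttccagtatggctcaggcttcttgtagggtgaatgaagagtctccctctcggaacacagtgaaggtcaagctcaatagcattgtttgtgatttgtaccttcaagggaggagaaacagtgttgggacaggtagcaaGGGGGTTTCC
Cxcr7: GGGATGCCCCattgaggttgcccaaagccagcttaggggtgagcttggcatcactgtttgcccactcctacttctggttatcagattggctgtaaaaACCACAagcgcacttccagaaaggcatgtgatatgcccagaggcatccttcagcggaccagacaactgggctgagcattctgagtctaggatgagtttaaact
Cx3cr1: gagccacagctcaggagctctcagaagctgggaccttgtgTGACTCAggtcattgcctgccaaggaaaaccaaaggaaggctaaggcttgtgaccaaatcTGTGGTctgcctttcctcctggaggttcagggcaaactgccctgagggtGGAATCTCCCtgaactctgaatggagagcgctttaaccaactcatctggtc

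Over all locus windows, an NF-kB match was present in 13 of 39 ligand windows (33.3%), 4 of 28 receptor windows (14.3%) and 8.06% of the 50000 windows. Windows of 1 call can overlap and share a match, and the 13 ligand windows belonged to 8 genes: Ccl20, Ccl25, Ccl27a, Ccl5, Cx3cl1, Cxcl1, Cxcl10 and Cxcl16. Those of Ccl27a and Cxcl16 lay at the starts of the neighboring genes Il11ra1 and Med11, and those of Ccl25 closer to the start of Elavl1. When only windows nearest to a ligand's own start were counted, the share was 8 of 28 (28.6%), and for receptors it was 4 of 21 (19%). Among promoter windows alone, 5 of 10 at ligands and 3 of 9 at receptors had a match, compared with 9.46% of all promoter windows. A match describes the letters in a window and is not evidence of binding.

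In ligand windows the other words differed less from the whole list, whereas in receptor windows RUNX and TEAD differed by more points than NF-kB. AP-1, the dimer bound at many enhancers of epithelial and activated cells, was matched in 33.3% of ligand windows, 28.6% of receptor windows and 24.8% of all windows. RUNX, a factor family of blood cells, was matched in 12 of 28 receptor windows (42.9%) and 9 of 39 ligand windows (23.1%), with 32.1% of all windows in between. The RUNX matches at receptors lay in Ccr6, Ccr9, Ccr10, Cx3cr1, Cxcr5 and Cxcr7. TEAD, read out by the Hippo pathway in epithelial cells, was matched in 12.8% and 14.3% of ligand and receptor windows and in 25.9% of all windows. The interferon response word (17.9%, 14.3% and 13%) and the ETS/PU.1 word (7.69%, 3.57% and 4.63%) showed shares within a few windows of the background. No matches of different words overlapped in these windows.

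**Figure D2:**
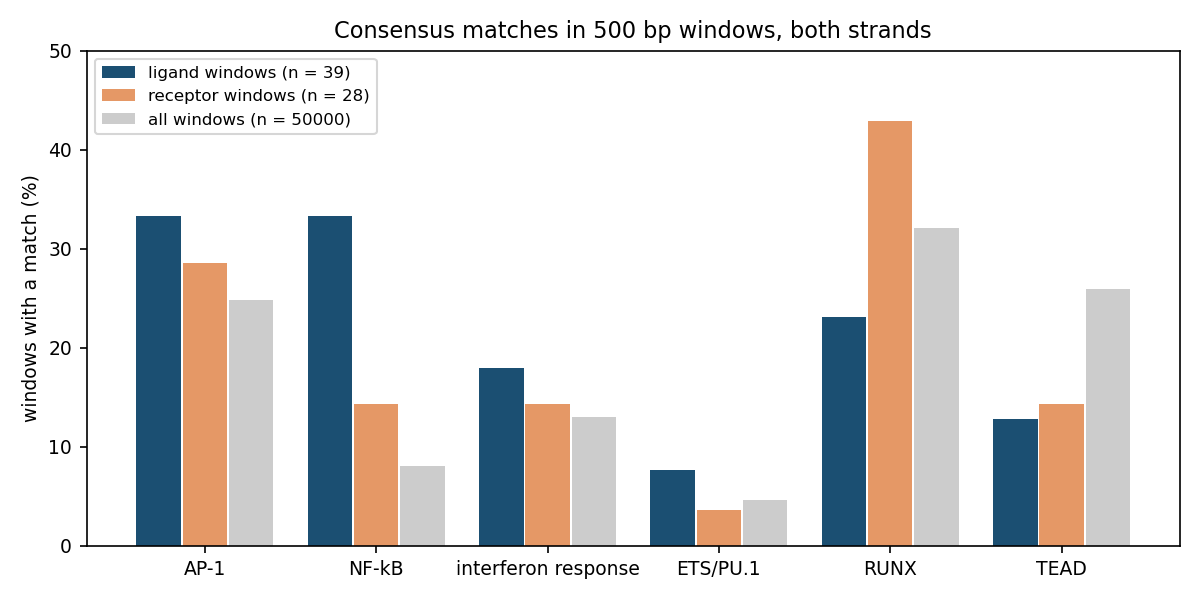
Percentage of 500 bp windows with at least 1 match, on either strand, to each of 6 short consensus words (horizontal axis) in windows at ligand genes, at receptor genes and in the whole list. NF-kB stands at 33.3% in ligand windows against 8.06% in all windows, and RUNX at 42.9% in receptor windows against 32.1%.

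The 6 ligand genes with promoter windows were Cx3cl1, Cxcl1, Cxcl5, Cxcl10, Ccl20 and Ccl25. Cx3cl1 encodes fractalkine, a membrane-anchored ligand of epithelial and endothelial cells, and had the most windows of all members, 9. Its promoter windows, centered 784 bp upstream and 6 bp downstream of a start, were accompanied by a window 4827 bp upstream and by 6 windows beyond the 3' end, between 12559 and 15912 bp downstream of the start. No window of the downstream group lay at the start of another gene.

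The neutrophil-attracting CXC ligands Cxcl1 and Cxcl5 both had promoter windows. At Cxcl1 they were centered 203 bp upstream and 83 bp downstream and came from 1 call with several summits, with further windows 9460 bp upstream and 9146 bp downstream. The last lay 3484 bp upstream of Cxcl2, the neighboring gene with the same receptor, which had no other window. Cxcl5 had a window 142 bp downstream of its start and a second at 4843 bp, which was nearer to Ppbp. Cxcl3 had 1 window, 7914 bp upstream, which was nearer to Pf4.

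Cxcl10, an interferon-induced attractant of T cells, had a window 72 bp upstream of its start and a second 4799 bp upstream, both in an intron of Art3, which spans the gene. Its neighbor Cxcl9, also induced by interferon, had no window in the gene or its flanks, and no numbered call at all lay between the listed windows that flank it, 39.0 kb apart. The nearest window to the Cxcl9 start was 18.1 kb away. Ccl20, the ligand of Ccr6 made by epithelium, had a window 80 bp downstream of its start and a pair at 3024 and 3406 bp, beyond the gene.

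At Ccl25, a ligand of thymus and small intestine, the 3 promoter windows were all also within 1 kb of a start of Elavl1, which encodes an RNA-binding protein and is transcribed in the opposite direction. They were centered 614 bp upstream, 3 bp downstream and 309 bp downstream of Ccl25 starts. The windows are therefore shared between both genes, and without such windows 5 of 36 ligands had a promoter window. In introns of the Ccl25 gene models there were 2 more, at 4183 and 4976 bp.

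Of the ligands without a promoter window, 9 had distal windows. Cxcl17, a mucosal ligand, had 4, but all lay nearer to the start of Lipe and 2 of them at it. The 2 windows of Cxcl16, the transmembrane ligand of Cxcr6, were at the start of Med11, 7163 and 7427 bp from its own. The 2 overlapping windows of Ccl5, an attractant of T cells and monocytes, were centered 4272 and 4480 bp upstream in intergenic DNA with no nearer gene start. Cxcl12, the ligand of Cxcr4 that holds hematopoietic cells in the marrow, had 1 window 5455 bp downstream of a start, in a UTR. Ccl9 had 1 at 11546 bp and Ccl1 had 1 in an intron of its long model, 39778 bp upstream of the nearest start. Ccl27a, a skin ligand, had 1 at 2806 bp, at the start of Il11ra1.

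There were 21 ligands without any window in the gene or its flanks. They included the monocyte attractants Ccl2, Ccl7, Ccl8 and Ccl12, the eotaxins Ccl11, Ccl24 and Ccl26, the macrophage products Ccl3, Ccl4 and Ccl6, and the dendritic cell ligands Ccl17 and Ccl22. The lymphoid tissue ligands Ccl19, Ccl21a, Ccl21b, Ccl21c and Cxcl13 were also among them, as were Ccl27b, Cxcl9, Cxcl14 and Cxcl15. For 17 of these, between 1 and 17 numbered calls outside the list lay between the flanking windows. For Ccl24, Ccl26, Cxcl9 and Cxcl15 there was none, so no call was numbered there.

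Some of these loci are near-identical copies, at which reads that must map to 1 place are lost. Of the 75-base words in each gene, the read length used, 99.8% of those of Ccl21b and 70.9% of those of Ccl21a also occurred in Ccl21c, and 44.2% of those of Ccl27a in Ccl27b. The interval on chromosome 4 from Ccl21b through Ccl21c to Ccl19 held no listed window over 1140 kb and 2 numbered calls. Absence of a window at the Ccl21 genes and Ccl27b cannot be read as closed DNA. Without the 5 Ccl21 and Ccl27 genes, 6 of 31 ligands (19.4%) had a promoter window and 14 (45.2%) a locus window. The shares of all genes were 48.3% and 68.2%.

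**Figure D3:**
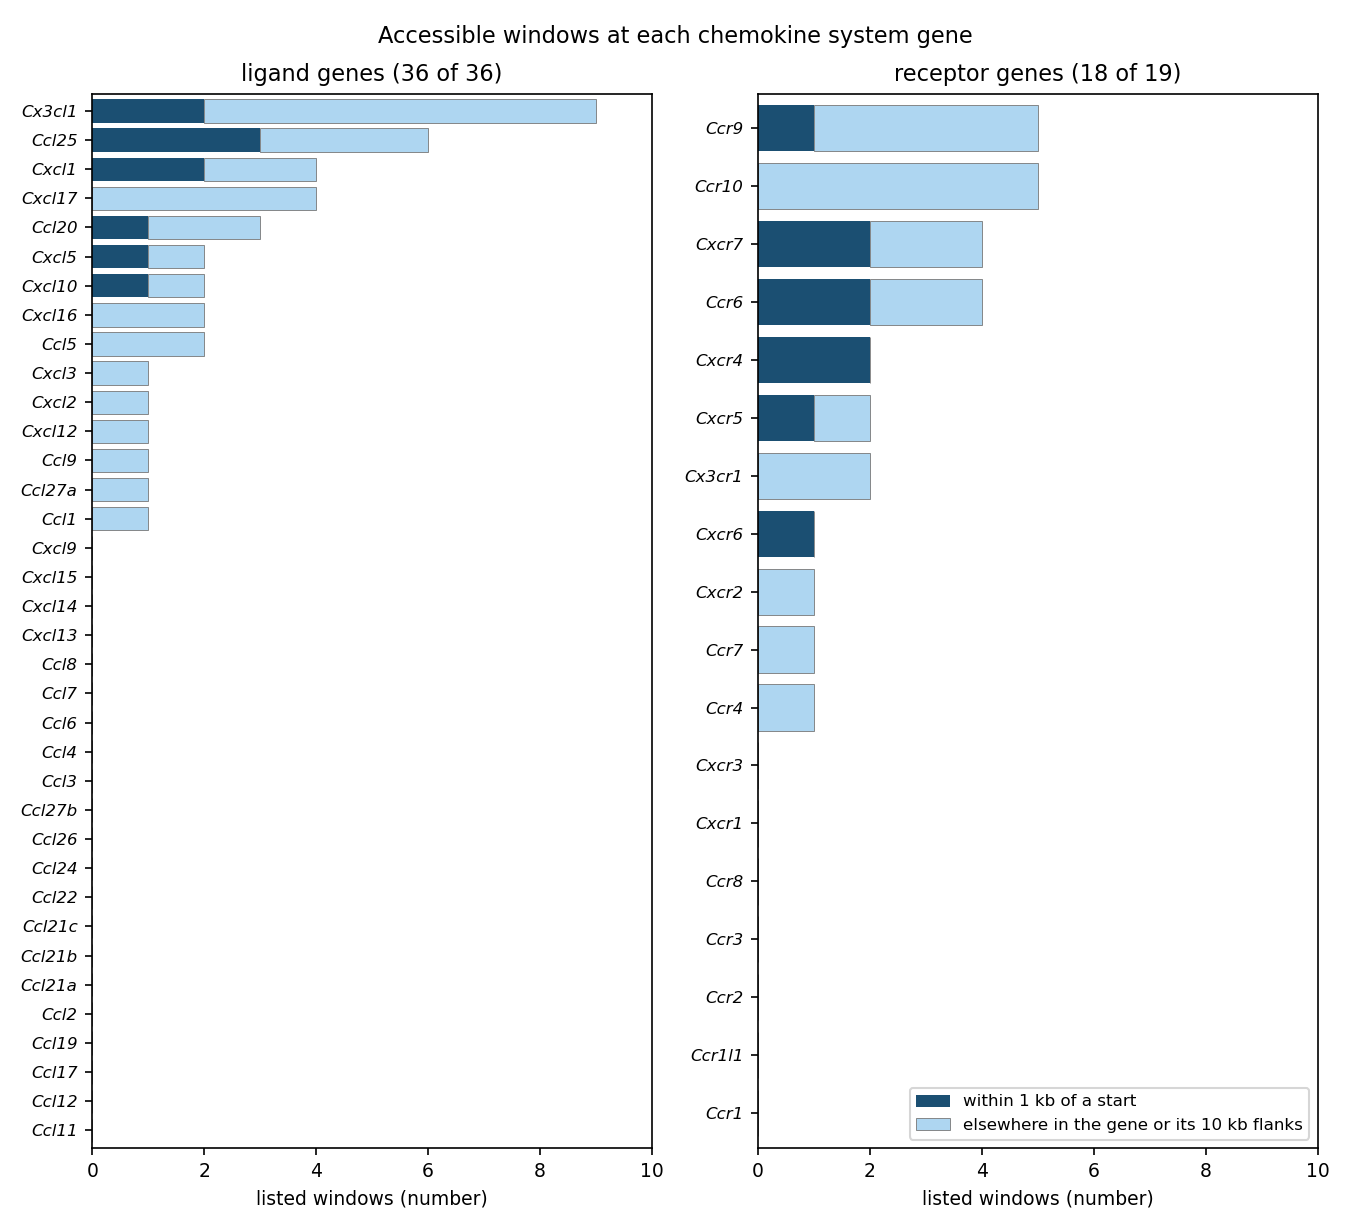
Number of listed windows at each of the 36 ligand genes and 18 of the 19 receptor genes, split into windows within 1 kb of a transcript start (dark) and elsewhere in the gene or its 10 kb flanks (light). Cx3cl1 has 9, Ccl25 has 6 and Ccr9 and Ccr10 have 5 each, and 21 ligands have none.

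Promoter windows were listed for 6 receptors. Cxcr4, the receptor for Cxcl12 found on most leukocytes and many tumor cells, had windows 68 and 866 bp downstream of its start and no others within 10 kb. Its surroundings had the second lowest listed share of calls among members, 26.8% within 5 Mb, and 11 of 13 numbered calls between its flanking windows were outside the list. Cxcr7, an atypical receptor for Cxcl12, had windows 625, 1249, 17699 and 21777 bp downstream, and all 4 of the calls between its flanks were listed.

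Cxcr5, which guides B cells into follicles, had a window 699 bp downstream of its start and an intronic one at 5825 bp. Cxcr6, a receptor of memory T cells and NKT cells, had a single window, 975 bp upstream in an intron of Fyco1. At Ccr6, found on B cells and on T helper cells of mucosa, 2 windows lay 567 and 67 bp upstream of an internal start, with others 10184 bp upstream and 19848 bp downstream.

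Ccr9, the gut-homing receptor, had 5 windows but only 1 at a start, 129 bp downstream of an internal one. Another was at 1515 bp, and windows at 12599 and 29230 bp upstream lay in the long intron of a gene model of 103.5 kb. The last coincided with the start of Lztfl1, 39187 bp from the outer start of Ccr9. Counting only the outermost start of each gene, 4 receptors (21.1%) and 6 ligands (16.7%) had a promoter window, against 45% of all genes.

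Among the receptors without a promoter window, Ccr10 had the most windows, 5. Of these 4 were at the starts of Plekhh3 and Cntnap1, and the fifth, 1536 bp downstream, was in the coding exon. Cx3cr1, found on monocytes, had intronic windows at 1423 and 3772 bp. Ccr7, which brings T cells to lymph nodes, had 1 window 7949 bp upstream, with 15 of 16 calls in its interval outside the list. Ccr4 had 1 window 6345 bp upstream and Cxcr2, the neutrophil receptor, 1 at 13329 bp.

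There were 8 receptors without a window, among them Ccr1, Ccr1l1, Ccr2, Ccr3, Ccr8, Cxcr1 and Cxcr3, which are mostly receptors of monocytes, granulocytes and effector T cells. For 6 of them the interval between flanking windows could be read, and each held between 1 and 3 numbered calls outside the list. Ccr2 lies beyond the last listed window of chromosome 9. At these 6 genes a missing window thus did not mean that no call had been made between the flanking windows. Those windows lay from 43.9 kb (Ccr8) to 249.6 kb (Cxcr3) apart, and the gaps in the numbers do not tell how near to the gene a call was.

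**Figure D4:**
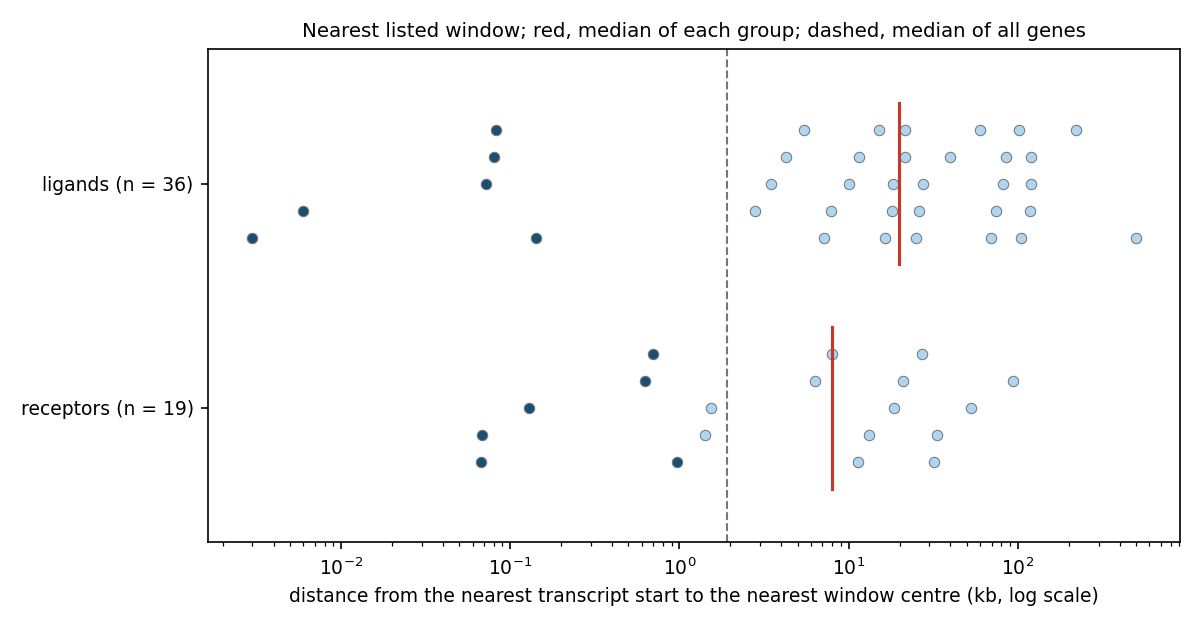
Distance in kb, on a log scale, from each gene's nearest transcript start to the centre of the nearest listed window, for ligands and receptors. Dark points have a promoter window, red lines are medians (19.8 kb for ligands and 7.95 kb for receptors) and the dashed line is the median of all genes (1.91 kb).

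Median distances gave the same order without a fixed flank, while the shares beyond 50 kb did not. The nearest window lay at a median of 19.8 kb from the start of a ligand gene, 7.95 kb from that of a receptor gene and 1.91 kb from that of any gene. Beyond 50 kb there were 12 of 36 ligands (33.3%) and 2 of 19 receptors (10.5%), compared with 19% of all genes. The receptor share rests on 2 genes, and by the median receptors were farther from a window than all genes. With 50 kb flanks, 66.7% of ligands and 89.5% of receptors had a window, against 83.1% of all genes. The farthest were Ccl21c among ligands, at 496.7 kb, and Cxcr3 among receptors, at 94.0 kb.

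Ligands were also set beside the receptors they are known to bind, in 21 textbook pairs listed after the values were known. Both genes had a promoter window in 2 pairs, Ccl20 with Ccr6 and Ccl25, whose promoter windows are all shared with Elavl1, with Ccr9. In 4 pairs only the ligand did, which were Cxcl1 and Cxcl5 with Cxcr2, Cxcl10 with Cxcr3 and Cx3cl1 with Cx3cr1. In 4 others only the receptor did, which were Cxcl12 with Cxcr4 and with Cxcr7, Cxcl16 with Cxcr6 and Cxcl13 with Cxcr5. By locus windows both genes were covered in 10 pairs and neither in 4. For comparison, 21.8% of members and 48.3% of all genes had a promoter window, and 47.3% and 68.2% a locus window. Genes such as Cxcr2 and Cxcl12 enter more than 1 pair, and whether both sides go together was not tested. The genes of the monocyte axis, Ccl2 and Ccr2, were without windows on both sides.

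Members lying within 200 kb of each other formed 11 clusters with 39 genes, and the remaining 16 lay alone. Of the 16 genes alone 6 had a promoter window and 12 a locus window, compared with 6 and 14 of the 39 in clusters. Over all protein-coding genes the shares were 48.3% and 68.2%. Clusters of CC ligands varied in their windows. The cluster from Ccl2 to Ccl1 on chromosome 11 spans 270.1 kb with 6 ligands and held 1 window, or 0.345 per 100 kb with its flanks, against 2 per 100 kb of the chromosome. Only 1 of 16 numbered calls in its interval was listed. The cluster from Ccl5 to Ccl4 on the same chromosome held 3 windows and 5 ligands, of which 2 had a locus window. Its rate was 1.89 per 100 kb, close to the 2.00 of the chromosome, with 2 of 15 calls listed. The Ccl26 and Ccl24 pair on chromosome 5 held none, and no call was numbered in 70.8 kb around it. On chromosome 4 the region of Ccl27a and Ccl21b held 2 windows, 2.53 per 100 kb and thus above the rate of the chromosome, 1 in the flank of Ccl27a and 1 between the genes beyond both flanks, and the cluster from Ccl27b to Ccl21a had none.

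Clusters with CXC and CX3C ligands were denser. From Cxcl5 to Cxcl2 on chromosome 5, 146.6 kb with 5 ligands held 8 windows, 4.80 per 100 kb against 2.23 on the chromosome, and 7 of 11 calls were listed. They lay at both ends, around Cxcl5 and Cxcl1, with a gap around Cxcl15, where no call was numbered over 97.7 kb. Cxcl9 and Cxcl10 had 2 windows in their interval, 4.21 per 100 kb. From Ccl22 to Ccl17 on chromosome 8, 9 windows gave 10.4 per 100 kb against 2.47, and all 9 belonged to Cx3cl1 in the middle, whereas the CC ligands on either side had none.

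In the receptor cluster of chromosome 9 that starts with Ccr9, Ccr9 and Cxcr6 had windows, while Ccr1, Ccr1l1, Ccr3 and Ccr2 had none. Xcr1, the receptor of Xcl1 that lies inside this cluster, had 4 windows. Cx3cr1 and Ccr8 shared a cluster with 2 windows, both at Cx3cr1, and the pair Cxcr2 and Cxcr1 had 1, at Cxcr2.

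**Figure D5:**
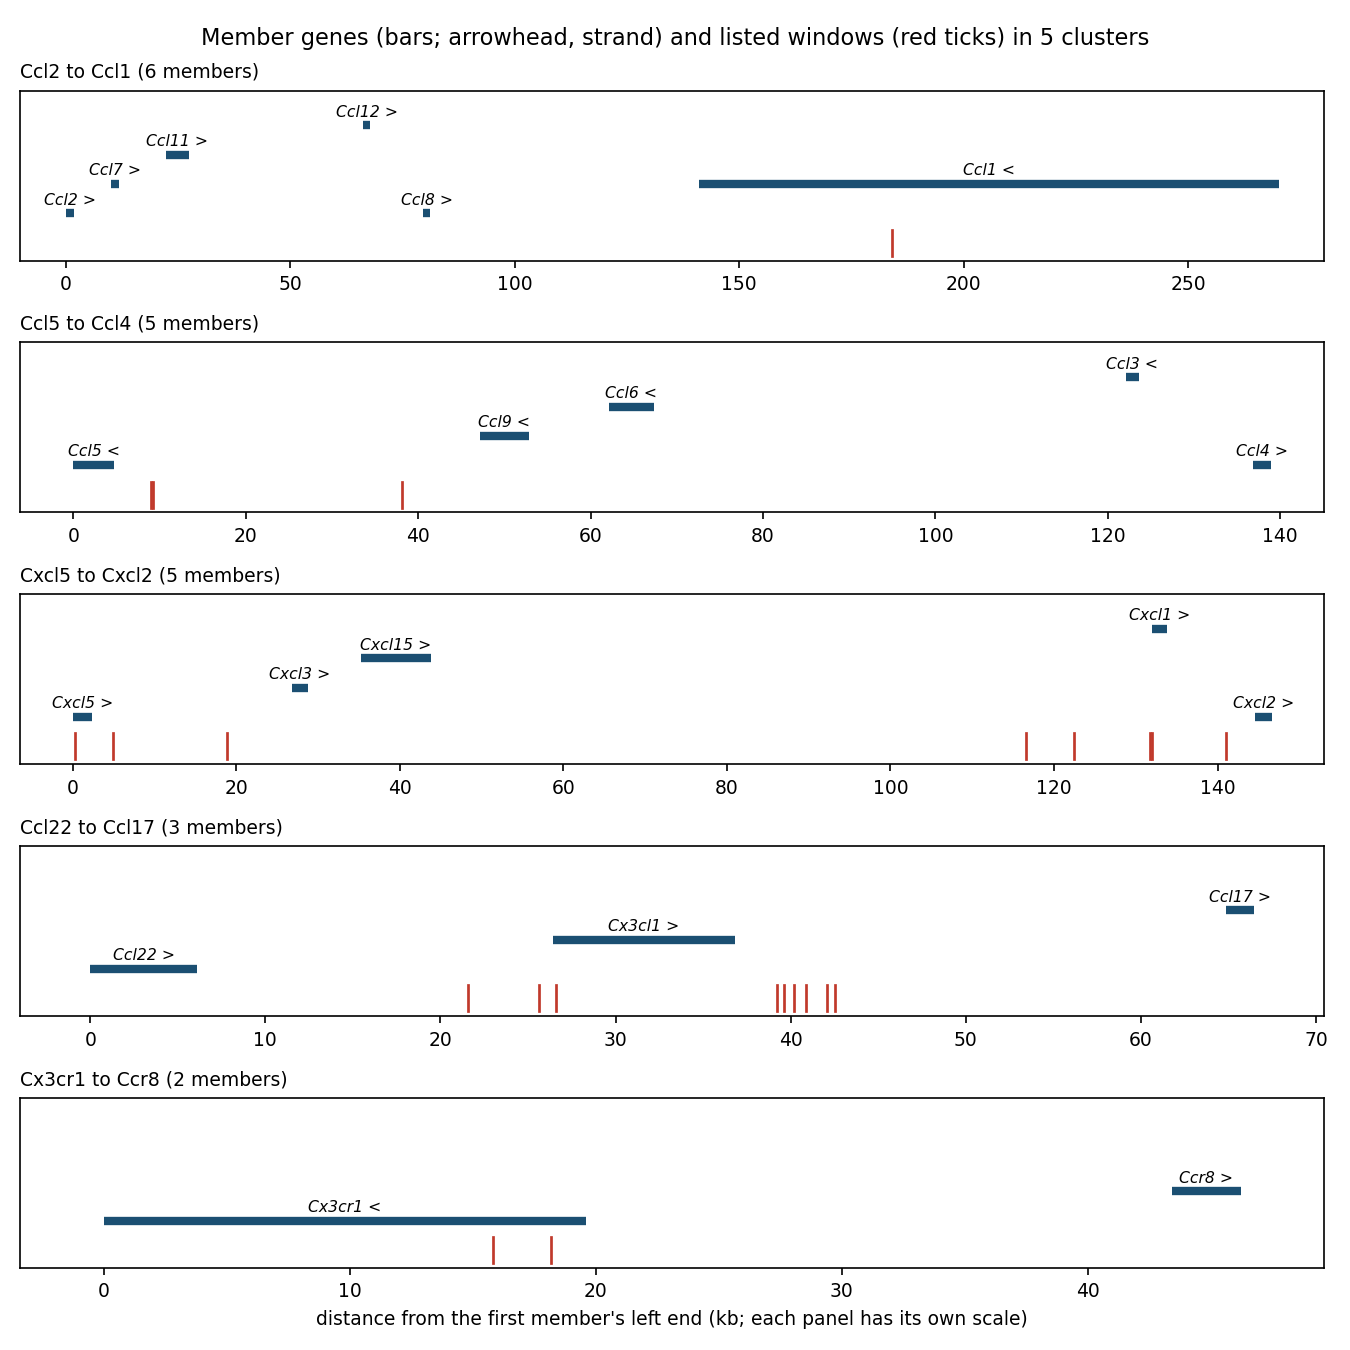
Member genes (blue bars, with an arrowhead for the strand) and listed windows (red ticks) in 5 clusters, in kb from the left end of the leftmost member, each panel on its own scale. The Ccl2 to Ccl1 panel holds 6 ligands and 1 window, and the Cxcl5 to Cxcl2 panel 5 ligands and 8 windows. A locus window was found at 1 of the 6 and at 4 of the 5 ligands. The Cx3cr1 to Ccr8 panel holds 2 windows, both at Cx3cr1.

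The chromosomes that kept few calls hold many CC ligands. On chromosomes 1 and 10–13, 1 of 14 ligands (7.14%) and 2 of 6 receptors had a promoter window, and elsewhere 5 of 22 ligands (22.7%) and 4 of 13 receptors (30.8%) did. For all genes the shares were 49.4% there and 47.9% elsewhere. Locus windows were found at 5 of 14 and 10 of 22 ligands and at 5 of 6 and 6 of 13 receptors. Outside these chromosomes ligands (45.5%) and receptors (46.2%) thus had nearly the same locus share. The locus shares of all genes were 68.9% on these chromosomes and 68% elsewhere. Within 5 Mb of the members, the listed share of calls ranged from 25.2% at Cxcl14 to 53.2% at Cxcl17, with medians of 43.9% for ligands and 43.2% for receptors. The split by whole chromosome does not follow this local share. Of the receptors on chromosomes 1 and 11, Cxcr1, Cxcr2 and Cxcr7 had 46%, 46.2% and 43.2%. Cxcr4, Ccr7 and Ccr10 had 26.8%, 34.7% and 34.5%. The split thus also set aside receptors whose surroundings had no low listed share. The part of the unlisted calls in the ligand and receptor counts was not tested.

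Of the 67 distinct windows at member loci, 30 were centered in introns, 25 between genes, 6 in coding exons, 5 in UTRs and 1 in a noncoding exon. Ligand windows were more often intergenic (18 of 39) and receptor windows more often intronic (18 of 28), without a share over all windows to set beside them. Introns of other genes are counted on both sides, such as Art3 at Cxcl10, Cntnap1 at Ccr10 and Fyco1 at Cxcr6. Ligand loci had the shorter median length, the part of which was not tested. For 28 of 39 ligand windows (71.8%) and 21 of 28 receptor windows (75%) the nearest start was that of a member, and the others lay closer to another gene.

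Downstream of the receptors, signal passes through Gi proteins, arrestins, receptor kinases, exchange factors of Rac, PI3-kinase gamma and phospholipase C beta, and RGS proteins limit it. Of 29 genes listed for this pathway 19 (65.5%) had a promoter window and 26 (89.7%) a locus window, compared with 48.3% and 68.2% of all genes. Their loci were longer (median 58.7 kb) and their promoters richer in CpG (median ratio 0.630) than those of all genes, the part of which was not tested. Tiam1, a Rac exchange factor, had 18 locus windows, Vav1, an exchange factor of blood cells, had 10, Gnai2 and Gnb1, subunits of the Gi protein, had 9 each, and Prex1 had 8. Those without a window were Pik3r5, Rgs13 and Rgs18. Of 10 relatives outside the naming rule 3 had promoter windows, the decoy-like receptor Ccrl2, the chemerin receptor Cmklr1 and Gpr35. Pf4 and Ppbp, platelet chemokines within the Cxcl5 cluster, had 2 and 3 locus windows and none at the start.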

How the data were processed

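Alignment to mm9 by the authors used Bowtie2 2.1.0, and duplicates were taken out with Picard 1.79. They found summits with MACS2 (version not given in the sources used here), centered 500 bp windows on them and kept those of lowest q-value. The deposited unit was the start and end position and name of each of 50000 windows. No score, count, ratio or p-value is attached. Peak names were read as meaning that both cell types were combined, although the methods describe peak finding within 1 condition at a time, which leaves this unsettled. The list therefore was 1 sample, and no comparison was tested.

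With Python 3.11.15, windows were joined to GENCODE vM1 gene models by an overlap of at least 1 bp. Gene records sharing symbol and chromosome were joined (22380 records; 56 member records gave 55 genes). Numbered calls missing from the list were counted from gaps in peak numbers. Consensus words were searched on both strands. The join was tested on simulated windows. The values of 1 receptor gene enter the counts and are not reported by name here. Members, lists and the rule for named genes (every member with its counts; window by window, members with a promoter window and the 4 ligands and 4 receptors with most locus windows among the rest) were chosen with earlier results of these data known. Other windows, genes outside the lists, pairs and printed sequences were chosen after their values were seen. Sequences were placed over motif matches rather than on window centers, as first planned. Alternatives covered promoter and flank distances, starts, window merging, multi-summit windows and chromosomes 1 and 10–13, and, added after the data were seen, windows at other genes' starts and near-identical copies.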

Additional observations from a re-analysis of the deposited data

How the results depend on the processing

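Of 63 recomputed values for 7 results, 46 stayed within 1.5 times the reported count or kept the sign of the difference. Some of these could not change. Merging windows keeps every gene that has a window, and the near-identical copies are all ligands, so receptor counts stay the same without them. With only windows from calls with several summits, 2 ligands (5.56%) and 0 receptors had a promoter window, against 13.1% of all genes. The ligand share was thus 5.56 percentage points above that of receptors instead of -14.9. Counting these windows, 5 ligands (13.9%) and 1 receptor (5.26%) had a locus window, against 19.9% of all genes. Ligands held 10 and receptors 2, since few windows are of this kind. In the gene body without flanks, 9 ligands (25%) held 13 windows and 7 receptors (36.8%) 16, against 56% of all genes with a window. With 5 kb flanks the shares were 36.1% of ligands, 42.1% of receptors and 63.7% of all genes. With 50 kb flanks 24 ligands (66.7%) held 87 windows and 17 receptors (89.5%) 85, against 83.1% of all genes with a window. The receptor share was then the higher one, but on only 19 receptors. Without chromosomes 1 and 10 to 13, 6 receptors of 13 (46.2%) had a locus window, with 15 windows, against 57.9% of all receptors. Ligands stood at 45.5%, so the difference in locus share between ligands and receptors nearly vanished. Of all genes 68% had a locus window in this setting. That setting also left out Cxcr1, Cxcr2 and Cxcr7, whose surroundings on chromosome 1 had no low listed share of calls. The difference in promoter share otherwise ranged from -4.39 points with the outermost start only to -25.4 points within 2.5 kb. It was -17.7 points without windows at other genes' starts and -12.2 without near-identical copies, both added after the data were seen. No paired analysis was possible because the results come from no test and the list is 1 pooled sample. The list gives no depth, so a missing window is a call of lower rank or none, and neither can be read as closed DNA.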

Other observations

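Genes that resemble the members by name but are outside the rule were counted apart. Ccrn4l, a circadian deadenylase with no relation to chemokine receptors, had 3 promoter windows and 8 locus windows. The atypical receptors Ccrl1 and Ccrl2 had 2 and 3 locus windows, of which 0 and 2 lay within 1 kb of a start. Of the other relatives, Xcl1, Darc and Ccbp2 had no window in the gene or its flanks.

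Among the 39 windows at ligand genes 10 (25.6%) came from calls with several summits, compared with 2 of 28 (7.14%) at receptor genes and 18.2% of all windows. The ligand windows of this kind were at Ccl25, Ccl5, Cx3cl1, Cxcl1 and Cxcl16, and those at a receptor were both at Ccr10.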
